A study of Mus musculus with 206 samples.

Results

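Zeb2 encodes a zinc finger homeodomain transcription factor, and its locus was followed here through the H3K27ac peaks of 4 mouse brain regions. The locus was defined as every consensus region that lay inside the Zeb2 gene body or for which a Zeb2 transcription start site (TSS) was the closest one of any protein-coding gene, at most 100 kb away, by GENCODE M21 on mm10. This rule gave 10 of 18272 consensus regions in prefrontal cortex (PFC), 14 of 16201 in hippocampus, 11 of 13788 in hypothalamus and 8 of 60013 in striatum, or 43 of 108274 in all. Zeb2 was chosen because its regions stood out when MOR-LPS and SAL-LPS hypothalamus were compared, so the hypothalamus values of the LPS groups are given as a description, without a test.

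The animals were wild type C57BL/6NTac mice of both sexes. Dams carried minipumps delivering morphine at 10 mg/kg/day (MOR) or saline (SAL), pups were moved to drug-naive foster dams after birth, and they then received morphine at 10 mg/kg in 2 subcutaneous injections per day, or saline, from postnatal day 1 to 14. In adulthood they were given lipopolysaccharide (LPS), a bacterial endotoxin, or saline, and tissue was collected 2 h later. Groups are named by perinatal and then adult treatment: the saline-challenged groups SAL-SAL and MOR-SAL, then the LPS groups SAL-LPS and MOR-LPS. H3K27ac, an acetyl mark of active promoters and enhancers, was mapped in about 10000 nuclei per library sorted for the neuronal protein NeuN. In the order just given, the groups held 8, 9, 11 and 14 libraries in PFC, 11, 11, 12 and 10 in hippocampus, 8, 12, 11 and 10 in hypothalamus, and 10, 7, 13 and 15 in striatum. PFC libraries were made with another kit (xGen 2S) than the rest (ThruPLEX), so kit and brain region cannot be told apart for PFC. Because nuclei were pooled within an animal, fewer marked nuclei and less acetylation per nucleus cannot be told apart either.

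ZEB2 binds paired E-boxes of the CACCTG type and mostly represses transcription, recruiting the corepressor CtBP and the NuRD complex, and it binds SMAD proteins downstream of TGF-beta and BMP receptors. In the brain it is known for roles in cortical layer formation and interneuron migration, and in glia it is needed for oligodendrocyte maturation and myelination. Loss of 1 copy of the human gene causes Mowat-Wilson syndrome.

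Zeb2 (ENSMUSG00000026872.17) lies on the minus strand of chromosome 2, at chr2:44983632-45117395, and is 133764 bases long with 10 exons. Its 17 protein-coding transcripts start at 17 distinct positions, of which most fall in a cluster near exon 1 and 1 is internal, near exon 3. In the hypothalamus, the consensus region that holds 10 start sites was followed, after a gap of 125 bases, by a region without one, and the hippocampus list had a gap of 94 bases that ended at the same base, 45113350. In PFC (chr2:45110767-45117045) and striatum (chr2:45110317-45116945) 1 consensus region ran across it without a gap. Part of the RefSeq GRCm38.p6 promoter is printed because the gap between listed regions falls on it. The lists hold no read counts, so whether acetylation drops there was not tested. The capitals mark the 66 bases of the printed part that lie between the hypothalamus regions, and they hold an unbroken run of 24 G in a sequence of 55.1% GC.

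Zeb2 promoter, chr2:45113285-45113529, mm10, minus strand: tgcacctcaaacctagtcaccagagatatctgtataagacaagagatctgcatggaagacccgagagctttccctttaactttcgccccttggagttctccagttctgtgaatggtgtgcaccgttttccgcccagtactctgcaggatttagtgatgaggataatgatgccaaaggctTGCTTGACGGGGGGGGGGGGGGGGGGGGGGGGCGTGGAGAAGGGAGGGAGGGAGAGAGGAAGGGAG

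The other sequences are windows of 300 bases around the middle peak summit of regions on which the comparisons turn, all on the minus strand of mm10. The first is the intron 2 region with the largest difference between MOR-LPS and SAL-LPS hypothalamus (chr2:45102950-45107028), and it carries a long CT and GT repeat. The next comes from the hypothalamus region at chr2:45053696-45063734, also in intron 2, and its capitals mark a CACCTG match. The last is from the hippocampus region farthest upstream of the gene (chr2:45177955-45186061), 60560 bases from the TSS.

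Intron 2, chr2:45103829-45104128: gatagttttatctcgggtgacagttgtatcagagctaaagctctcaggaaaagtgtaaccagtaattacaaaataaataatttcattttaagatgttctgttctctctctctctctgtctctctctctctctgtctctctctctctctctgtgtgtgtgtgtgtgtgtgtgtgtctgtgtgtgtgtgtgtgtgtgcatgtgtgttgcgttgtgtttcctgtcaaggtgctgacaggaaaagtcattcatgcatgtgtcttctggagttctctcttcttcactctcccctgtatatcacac

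Intron 2, chr2:45059064-45059363: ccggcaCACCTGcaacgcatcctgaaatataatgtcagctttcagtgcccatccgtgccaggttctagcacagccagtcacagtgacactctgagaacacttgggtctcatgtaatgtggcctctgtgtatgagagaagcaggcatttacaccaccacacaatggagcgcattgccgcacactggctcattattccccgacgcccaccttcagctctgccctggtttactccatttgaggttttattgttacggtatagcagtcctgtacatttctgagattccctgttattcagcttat

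Upstream, chr2:45181924-45182223: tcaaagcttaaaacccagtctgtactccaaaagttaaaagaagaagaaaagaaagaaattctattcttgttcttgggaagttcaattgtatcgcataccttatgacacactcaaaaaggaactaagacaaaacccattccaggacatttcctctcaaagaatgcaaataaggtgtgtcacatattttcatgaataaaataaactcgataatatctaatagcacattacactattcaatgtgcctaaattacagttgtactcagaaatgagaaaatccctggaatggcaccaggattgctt

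CACCTG, searched on both strands, was found in the windows of 3 of 11 Zeb2 regions in the hypothalamus, beside 20.6% of the windows of all hypothalamus regions, and in 0 of 14 in the hippocampus, beside 21.7%. None of the 4 RefSeq promoters of Zeb2 held it, while 20.2% of 32851 RefSeq promoters did. TGANTCA, the palindromic AP-1 site, occurred in 0 of 11 and 0 of 14 windows (9.41% and 8.94% of all windows), and 2 matches lay in the Zeb2 promoter at chr2:45110228-45110527, where 7.81% of all promoters held at least 1. The NF-kB motif was present in 1 of 11 hypothalamus windows (7.22% of all). The glucocorticoid response element was present in 0 of 11 (0.667% of all). These are letter matches in short windows and do not show binding.

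The consensus regions, which are built over libraries, spanned much of the gene. Within single libraries the median share of the gene under peaks was 25.9% in PFC, 17.3% in hippocampus, 1.11% in striatum and 0.589% in hypothalamus. Consensus regions covered 87.2% of the gene in PFC, 83.3% in striatum, 81.2% in hippocampus and 53.9% in hypothalamus. In the striatum 1 consensus region of 49935 bases (chr2:45041223-45091157) spanned much of intron 2, where the median width of all striatum regions was 2210 bases. On average, peaks covered 29.9% of it in MOR-LPS libraries, 14.0% in SAL-SAL, 3.91% in SAL-LPS and 0.206% in MOR-SAL. In PFC the Zeb2 regions had a peak in 54.8% to 95.2% of libraries, against a median of 88.1% over all PFC regions. In the hippocampus they had one in 70.5% to 97.7%, against a median of 81.8%. The share was lower in the hypothalamus (17.1% to 46.3%, against a median of 75.6% over all regions) and in the striatum (22.2% to 62.2%, against a median of 40.0%). Upstream of the gene, 4 regions were listed from hippocampus alone, at chr2:45122936-45127442, chr2:45157041-45160445, chr2:45166062-45172902 and chr2:45177955-45186061. The hippocampus region next beyond the 100 kb limit, chr2:45225073-45230122, lay 107677 bases from the 5′ end and had a peak in 63.6% of libraries.

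**Figure D1:**
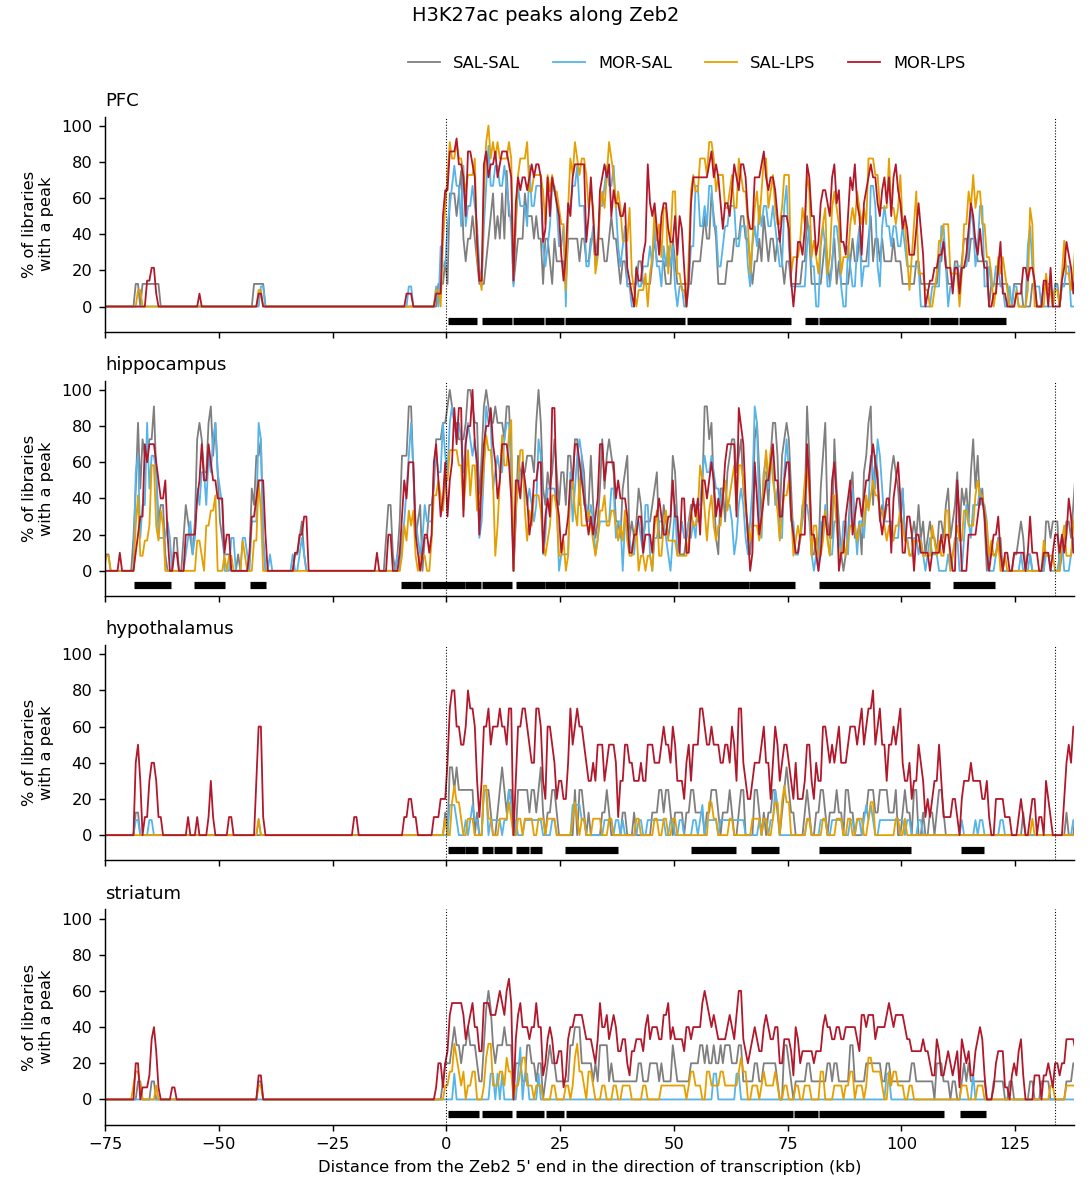
The share of libraries with a peak (vertical axis, percent) is plotted along Zeb2 against the distance from its 5′ end in kb, 1 panel per brain region and 1 line per group, with consensus regions as black bars and the ends of the gene as dotted lines. In the hypothalamus the MOR-LPS line runs above the other groups over most of the gene, and peaks upstream of the 5′ end are frequent in the hippocampus.

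Levels are given as percentile ranks. The regions of a library were put in order from 0 to 100 by the strongest overlapping peak (its −log10 p), and those without a peak shared 1 low tied rank, which is lower in libraries with more peaks. The number of peaks, the measure of depth available here, ran from 10811 to 143527 per library with a median of 62600. A region of high rank is therefore among the strongly marked ones of its library, and a difference between groups is in percentile points.

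At the intron 2 region of largest difference, the 10 MOR-LPS hypothalamus libraries ranked from 5.94 to 98.9 with a median of 90.3, and 8 of them had a peak. The 11 SAL-LPS libraries ranked from 5.14 to 77.4 with a median of 16.0, and 2 had a peak. The 12 MOR-SAL libraries ranked from 5.73 to 72.3 (median 18.0, 4 with a peak) and the 8 SAL-SAL libraries from 6.71 to 97.6 (median 39.2, 4 with a peak). The groups thus overlapped: 7 MOR-LPS libraries lay at 88.8 or above, MOR-LPS 7-1 lay at 39.7, MOR-LPS 13-2 and 18-1 had no peak, and SAL-SAL female 9-4 reached 97.6.

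The TSS cluster showed the same order of medians. At chr2:45110451-45113225, which holds 10 start sites, MOR-LPS libraries ranked from 5.94 to 92.5 with a median of 62.0 and a peak in 8 of 10, and SAL-LPS libraries from 5.14 to 83.0 with a median of 13.2 and a peak in 1 of 11. MOR-SAL ranked from 5.55 to 86.0 (median 13.3, 2 of 12 with a peak) and SAL-SAL from 6.71 to 92.6 (median 16.1, 2 of 8). Most libraries outside MOR-LPS therefore had no peak at the Zeb2 start sites at all, and the few that did ranked from 58.7 to 92.6.

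At the adjoining region chr2:45113351-45116982, 67 bases from a start site, MOR-LPS ranked from 5.94 to 96.9 with a median of 85.6, against medians of 15.5 in MOR-SAL, 16.0 in SAL-LPS and 25.2 in SAL-SAL. At the internal start site (chr2:45015207-45035470) the MOR-LPS median was 90.8, against 18.0, 16.6 and 22.8 in the same order. A peak was present there in 9 of 10 MOR-LPS, 3 of 12 MOR-SAL, 4 of 11 SAL-LPS and 3 of 8 SAL-SAL libraries. At the TSS cluster and at the internal start site alike, most MOR-LPS libraries had a peak and most other libraries had none.

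**Figure D2:**
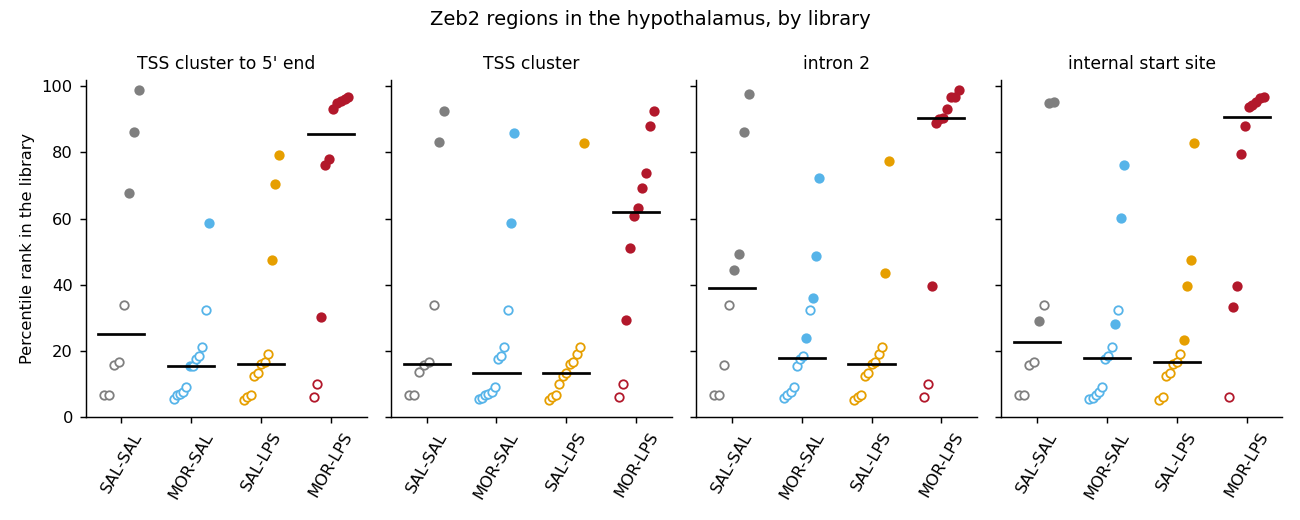
Percentile rank in the library (vertical axis, 0 to 100) is shown for 4 Zeb2 regions in the hypothalamus, 1 point per library, grouped by treatment, with open points for libraries without a peak in the region and a bar at the group median. MOR-LPS medians are 85.6, 62.0, 90.3 and 90.8 from left to right, and the highest SAL-SAL library lies above that median in each panel, while the highest SAL-LPS library does so at the TSS cluster (83.0) and lies lower in the other panels.

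Over all 11 hypothalamus regions, MOR-LPS minus SAL-LPS ran from 10.8 to 49.3 percentile points (SE 7.18 to 10.4) with a median of 35.7, beside −0.344 over all hypothalamus regions. The largest difference was that of the intron 2 region, 49.3 ± 10.4 (SE), followed by 46.2 ± 10.4 at the internal start site and 41.0 ± 10.3 beside the TSS cluster. The smallest was 10.8 ± 7.18 at exons 5 and 6 (chr2:44999292-45004362), where 6 of 10 MOR-LPS and 0 of 11 SAL-LPS libraries had a peak. As this contrast chose the locus, the differences are a description. MOR-LPS minus MOR-SAL, which shares the MOR-LPS libraries, ran from 7.68 to 49.2 with a median of 32.7, also as a description. SAL-LPS minus SAL-SAL was below 0 at all 11 regions (−20.9 to −3.54, median −14.5), again without a test, as it shares the SAL-LPS libraries. Over all hypothalamus regions limma called 0.305% in this contrast. With the number of peaks as a term the MOR-LPS minus SAL-LPS median was 40.3, and in lists cut to equal length it was 28.9.

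The animals' labels join a leading number and a second number, and animals with the same leading number always had the same perinatal treatment. What it stands for is not given in the sources used here, and up to 5 animals shared one. At the intron 2 region, the 6 MOR-LPS libraries of leading numbers 14, 15 and 16 all ranked at 90.2 or above. MOR-SAL animals that shared these numbers ranked at 32.4 (15-4) and 5.73 (16-3), both without a peak. Under number 6 the MOR-LPS library ranked at 88.8 and the MOR-SAL libraries at 6.53 and 36.1. The order was the opposite under number 13, with MOR-LPS at 5.94 and MOR-SAL at 23.9 and 72.3, and under number 18, with 10.1 and 48.7. The plain difference of MOR-LPS and SAL-LPS means, 49.5, ran from 43.3 without number 14 to 56.7 without number 13.

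Cell type markers and the number of peaks were compared between these groups as well, and no difference passed adjustment. The number of peaks was 76500 ± 34500 (SD) in the 10 MOR-LPS hypothalamus libraries against 49700 ± 14500 in the 11 from SAL-LPS, with p = 0.0316 by a permutation test within sex and 0.405 after adjustment over 64 comparisons. The share of 12 neuron markers with a strong promoter peak averaged 38.3% ± 18.9 in MOR-LPS against 52.3% ± 23.3 in SAL-LPS (permutation test, adjusted p = 0.733), and that of 16 oligodendrocyte markers was 6.25% ± 9.77 and 2.84% ± 4.3 (adjusted p = 1). Oligodendrocyte shares ranged from 0 to 31.2% in MOR-LPS, 0 to 12.5% in MOR-SAL and SAL-LPS, and 0 to 37.5% in SAL-SAL, and no hypothalamus library had a microglia marker among its strong peaks. Over the 41 libraries, the rank of the TSS cluster went down with the neuron share (Spearman's rho −0.597, Pearson's r −0.539) and up with the oligodendrocyte share (r 0.581, rho 0.38), as a description of the libraries that chose the locus. With the oligodendrocyte share as a term the median MOR-LPS minus SAL-LPS difference was 31.8, and with the neuron share it was 28.5, with 11 of 11 regions above 0 in both.

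Peaks upstream of Zeb2, listed as consensus regions from hippocampus alone, were also seen in hypothalamus libraries. At chr2:45177955-45186061 a peak was present in 7 of 10 MOR-LPS, 2 of 12 MOR-SAL, 0 of 11 SAL-LPS and 1 of 8 SAL-SAL libraries. At chr2:45157041-45160445 the counts were 6, 1, 1 and 0. The remaining upstream regions were marked in MOR-LPS hypothalamus libraries alone, in 2 of 10 at chr2:45122936-45127442 and 3 of 10 at chr2:45166062-45172902. Peak lists were longer on average in MOR-LPS, with a mean of 76500 peaks against 52900 in MOR-SAL, 49700 in SAL-LPS and 52200 in SAL-SAL. In lists cut to equal length, a peak remained in 1 of the 10 libraries at chr2:45177955-45186061 and 1 of 8 at chr2:45157041-45160445. At chr2:45122936-45127442 it remained in 1 of 2, and at chr2:45166062-45172902 in 0 of 3. The part of list length in the group counts was not tested. The libraries are the same as above, so these counts are a description too.

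The share of the 133764 bases of Zeb2 under any peak gives a second view of the same lists. In the hypothalamus, MOR-LPS libraries covered 0 to 73.0% of the gene with a median of 24.0%, and 5 of 10 covered more than 25%. No other hypothalamus library did: MOR-SAL reached 20.4% (median 0.547%), SAL-LPS 10.7% (median 0.262%) and SAL-SAL 24.4% (median 0.0826%). Of the 41 libraries, 13 had no peak in the gene. In lists cut to the 10000 strongest peaks the MOR-LPS median was 8.98% with 2 of 10 above 25%, and the medians of the other groups were 0. The highest in the full lists were MOR-LPS male 14-4 at 73.0% and female 15-1 at 61.0%, with oligodendrocyte shares of 0 and 31.2%. In PFC the medians were 34.3% in MOR-LPS, 30.3% in SAL-LPS, 17.5% in MOR-SAL and 3.3% in SAL-SAL, and in the hippocampus 18.1%, 9.24%, 15.1% and 23.7%. In the striatum they were 5.43%, 0.742%, 0.231% and 1.51%, with single libraries up to 84.2% in MOR-LPS and 78.2% in SAL-SAL.

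**Figure D3:**
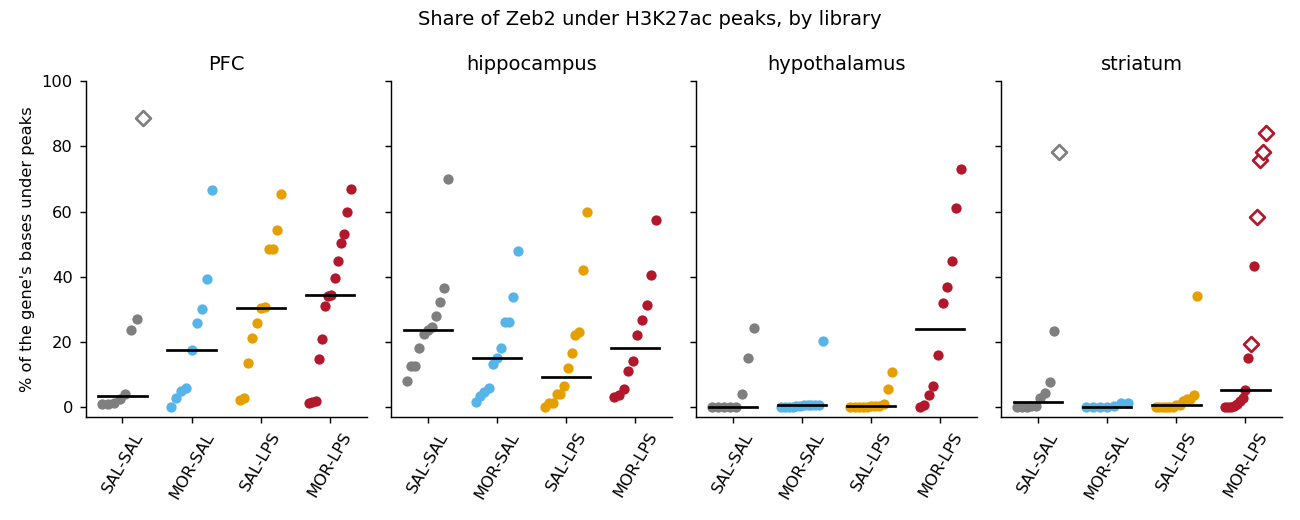
The share of the bases of Zeb2 under H3K27ac peaks (vertical axis, percent) is shown for each library by brain region and group, with a bar at the median and open diamonds for libraries in which at least 40% of 16 oligodendrocyte markers had a strong promoter peak. In the hypothalamus 5 MOR-LPS libraries and no other lie above 25%, and the open diamonds lie at 19.4% to 84.2% in the striatum and at 88.6% in PFC.

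The same comparison in other brain regions, and perinatal morphine alone in all 4, did not choose the locus and could be tested. Animals that also gave a hypothalamus library numbered 25 in striatum, 24 in PFC and 22 in hippocampus, so these tests are not fully separate from that choice. Regions of 1 gene are not separate observations either: striatum ranks at the other 7 Zeb2 regions had a rho of 0.548 to 0.704 with the promoter region. None of the Zeb2 regions passed an adjusted p of 0.05 by limma in any of the 13 contrasts. In the striatum, MOR-LPS ranked above SAL-LPS at 8 of 8 regions, by 17.9 to 24.6 percentile points with a median of 21.7, beside −1.47 over all striatum regions. All 8 had an unadjusted p under 0.05, as did 20.4% of all striatum regions, and 0 of 8 passed the adjustment (smallest adjusted p by limma 0.0758) where 2.32% of all did. At the striatum promoter region (chr2:45110317-45116945, 13 start sites), MOR-LPS libraries ranked from 21.3 to 98.2 with a median of 85.1 and a peak in 12 of 15. SAL-LPS ranked from 25.3 to 92.9 (median 36.6, 5 of 13 with a peak), MOR-SAL from 25.3 to 75.6 (29.4, 1 of 7) and SAL-SAL from 22.2 to 97.2 (50.3, 5 of 10). The groups overlapped over most of their range, and the difference of 24.6 ± 9.82 (SE) had an adjusted p by limma of 0.135.

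MOR-LPS minus MOR-SAL in the striatum was above 0 at 8 of 8 regions, from 12.3 to 34.5 with a median of 25.4. At an unadjusted p 6 of 8 passed, beside 17.3% of all regions, and 0 of 8 did after adjustment (smallest adjusted p by limma 0.112), beside 0.253%. Perinatal morphine alone (MOR-SAL minus SAL-SAL) gave a median of −11.2, with 1 of 8 regions above 0, 1 of 8 at an unadjusted p (5.57% of all) and 0 of 8 adjusted (0.00667% of all). LPS alone (SAL-LPS minus SAL-SAL) gave a median of −8.33, with 0 of 8 at either threshold (5.10% and 0% of all).

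The nuclei had been sorted for NeuN, but promoters of oligodendrocyte genes carried strong peaks in some striatum libraries. The share of these markers averaged 25.4% ± 33.4 in MOR-LPS (SD, n = 15) against 4.81% ± 6.82 in SAL-LPS (n = 13), with p = 0.0048 by a permutation test within sex and 0.29 after adjustment over 64 comparisons. In 6 striatum libraries, 5 MOR-LPS and 1 SAL-SAL, the share was 43.8% to 87.5%, and these covered 19.4% to 84.2% of Zeb2 with a median of 77.0%. The other 39 covered 0 to 43.4% with a median of 0.339%. Over the 38 libraries with a share under 20%, the rank of the striatum promoter region and the share gave a Pearson's r of −0.0229 and a Spearman's rho of −0.116 (adjusted permutation p = 0.891 and 0.595), and over the other 7 r was 0.618 and rho 0.631 (adjusted permutation p = 0.27 and 0.243), with an r of 0.0416 without the 2 farthest. With the oligodendrocyte share as a term, the median MOR-LPS minus SAL-LPS difference at the Zeb2 regions was 6.92 and 0 of 8 had an unadjusted p under 0.05. Without the 6 libraries it was 7.09, again with 0 of 8. Both of these were chosen after seeing the data. In the same contrast 8 of 50 regions of oligodendrocyte genes were called higher in MOR-LPS (2.32% of all regions called). Among them were those of Ugt8a (33.8 ± 8.41, adjusted p by limma 0.0312), an enzyme of myelin galactolipid synthesis, and Cldn11 (26.4 ± 7.27, 0.0361), a myelin tight junction protein. This contrast called 1395 of all 60013 striatum regions, but 2 in lists of equal length. It called 0 with the oligodendrocyte share as a term, and 0 without the 6 libraries. Of astrocyte marker regions 3 of 25 were called higher, while the median difference over the 25 was −3.07. Of neuron marker regions 1 of 162 was called lower, one of Rbfox3, which encodes NeuN (−31.1 ± 7.62, SE, adjusted p by limma 0.0307). The median over the 162 was −6.19.

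In PFC, MOR-LPS ranked above SAL-LPS at 10 of 10 Zeb2 regions, by 5.15 to 25.1 with a median of 18.0. By unadjusted p 4 of 10 passed, beside 11.3% of all PFC regions, and 0 of 10 after adjustment (smallest adjusted p by limma 0.305), beside 0%. The PFC promoter region (chr2:45110767-45117045) ranked from 15.1 to 98.8 in MOR-LPS with a median of 84.3, and from 14.9 to 95.1 in SAL-LPS with a median of 67.7. MOR-SAL ranked from 10.4 to 96.7 (median 49.8) and SAL-SAL from 7.0 to 99.4 (median 66.3). Every group thus held both low and very high libraries, and the difference of 18.3 ± 10.3 (SE) had an adjusted p by limma of 0.511. With the oligodendrocyte share as a term the median over the 10 regions was 12.9 and 0 of 10 had an unadjusted p under 0.05, while without the 1 PFC library of high share it was 17.5 with 4 of 10. MOR-SAL minus SAL-SAL had a median of 3.81, SAL-LPS minus SAL-SAL 1.32 and MOR-LPS minus MOR-SAL 11.0. In each of these 0 of 10 passed an unadjusted p (2.96%, 6.54% and 7.81% of all regions in the same order) and 0 of 10 the adjusted p (0% of all).

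In the hippocampus, MOR-LPS ranked above SAL-LPS at 12 of 14 regions, from −2.11 to 24.1 with a median of 15.3. An unadjusted p under 0.05 was found at 3 of 14, beside 7.56% of all, and 0 of 14 passed the adjustment, beside 0% of all (smallest adjusted p by limma 0.606). The hippocampus region from the TSS cluster past the 5′ end (chr2:45113351-45122840) ranked from 33.5 to 99.7 in MOR-LPS with a median of 88.9, from 33.2 to 98.3 in MOR-SAL (91.9), from 22.2 to 98.6 in SAL-LPS (68.9) and from 68.4 to 99.6 in SAL-SAL (89.5). A peak was present in 9 of 10 MOR-LPS, 10 of 11 MOR-SAL, 9 of 12 SAL-LPS and 11 of 11 SAL-SAL libraries, so each group but SAL-SAL held a library at a low rank. SAL-LPS minus SAL-SAL was −24.2 ± 7.6 (SE) at this region, the smallest p of the locus in the hippocampus, with an adjusted p by limma of 0.241. SAL-LPS libraries also held fewer peaks, 58700 ± 34100 (SD, n = 12) against 96800 ± 23100 in SAL-SAL (n = 11), with p = 0.00907 by a permutation test and 0.29 after adjustment. The rank of this region rose with log10 of the number of peaks over the 44 libraries (Pearson's r 0.573, adjusted permutation p = 0.00884 over 17 relations), less so by rank (Spearman's rho 0.329, adjusted permutation p = 0.101), and r was 0.448 without the 2 farthest libraries.

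Over the 14 hippocampus regions, SAL-LPS minus SAL-SAL had a median of −4.3 with 2 of 14 at an unadjusted p (9.59% of all), MOR-SAL minus SAL-SAL −0.349 with 1 of 14 (5.64%), and MOR-LPS minus MOR-SAL 9.42 with 1 of 14 (6.09%). In these contrasts 0 of 14 passed the adjustment by limma, beside 0%, 0.00617% and 0% of all regions. Perinatal morphine alone in the hypothalamus, MOR-SAL minus SAL-SAL, was the remaining tested contrast: all 11 Zeb2 regions were below 0 (−22.7 to −0.391, median −11.2), 1 of 11 had an unadjusted p under 0.05 beside 8.04% of all, and 0 of 11 passed the adjustment beside 0%. Within the libraries of the most frequent peak name pattern, chosen after seeing the data, the median was −5.37 with 3 of 11 regions above 0. The region at an unadjusted p under 0.05 was the one beside the TSS cluster, chr2:45113351-45116982, at −22.7 ± 11.2 (SE, adjusted p by limma 0.608).

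**Figure D4:**
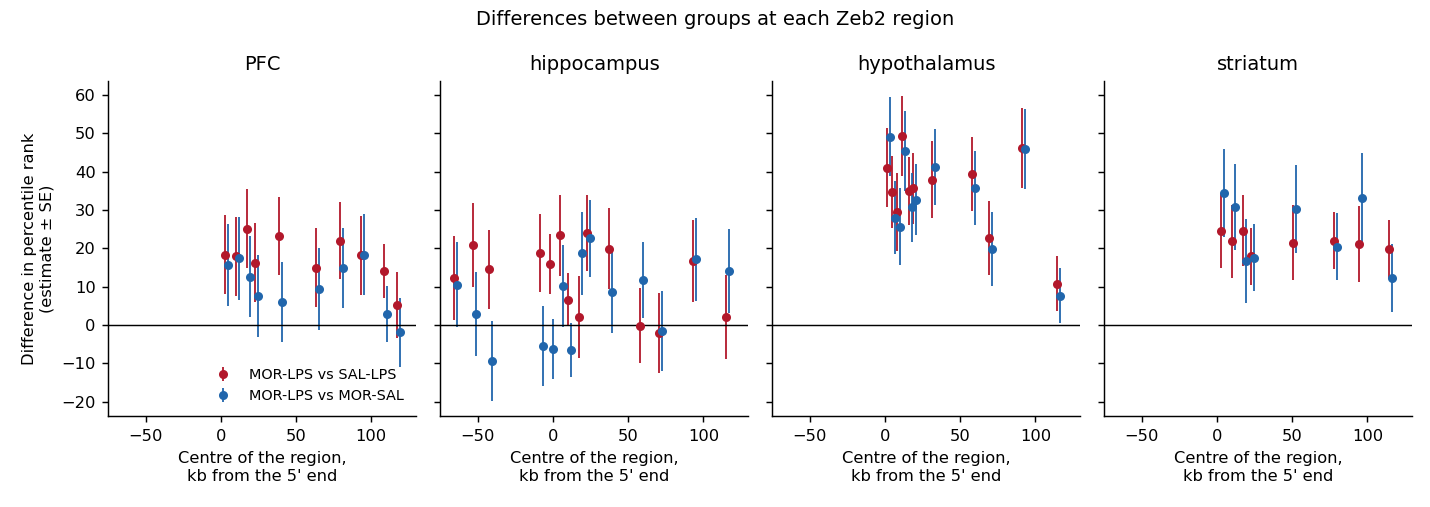
Differences in percentile rank (vertical axis, limma estimate ± SE) are plotted for each Zeb2 region against the distance of its centre from the 5′ end in kb, 1 panel per brain region, for MOR-LPS minus SAL-LPS in red and MOR-LPS minus MOR-SAL in blue. Hypothalamus estimates reach 49.3 and chose the locus, while those of PFC, hippocampus and striatum stay at 34.5 or below.

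To compare brain regions, the 4 consensus lists were merged where they overlapped, which gave 10 Zeb2 regions of 59310, and ranks were fitted with animal as a block, as 60 of 72 animals gave libraries of more than 1 brain region. By mean rank the hippocampus was highest at the promoter, while by the share of the gene under peaks PFC had the higher median over all libraries, 25.9% against 17.3%. At the merged promoter region (chr2:45109805-45122840) the rank was 90.4 ± 16.5 in hippocampus (SD, n = 44), 82.3 ± 20.2 in PFC (n = 42), 57.0 ± 30.7 in hypothalamus (n = 41) and 55.6 ± 28.0 in striatum (n = 45), and a peak was present in 90.9%, 90.5%, 41.5% and 51.1% of libraries. PFC and hippocampus did not differ there past the threshold (−10.2 ± 4.66, SE, adjusted p by limma 0.0563), nor did hypothalamus and striatum (3.84 ± 4.68, 0.537).

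Of the 10 merged regions, 6 lay inside the gene or at its 5′ end, and these were listed from at least 3 brain regions. By limma, hippocampus was higher than hypothalamus at 6 of 6, by 21.1 to 34.1 percentile points, where 43.6% of all merged regions were called in either direction. It was higher than striatum at 6 of 6, by 29.6 to 38.0, where 50.0% were. PFC was higher than hypothalamus at 6 of 6, by 16.6 to 23.9 (60.3% of all called), and higher than striatum at 6 of 6, by 21.1 to 27.7 (37.6% of all called). Between PFC and hippocampus 1 of 6 was called (50.7% of all called), chr2:45102903-45109674 in intron 2, by −11.4 ± 4.34 (SE). Hypothalamus and striatum differed at 0 of 6 by limma, with 0 of 6 at an unadjusted p under 0.05 (40.7% of all called). The region chr2:45091388-45095678 is not in the hypothalamus list.

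The 4 upstream regions were listed from hippocampus peaks alone, so a higher rank in hippocampus was set by that choice, and their values are a description. Their mean ranks were 68.4 to 78.3 in hippocampus, 26.5 to 31.0 in PFC, 33.4 to 42.6 in hypothalamus and 28.3 to 38.5 in striatum. In lists cut to 10000 peaks each, calls over all 10 merged regions numbered 3 for PFC against hypothalamus, where the full lists gave 9, and 5 for PFC against hippocampus, 4 for PFC against striatum, 7 and 8 for hippocampus against hypothalamus and striatum, and 0 for hypothalamus against striatum.

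**Figure D5:**
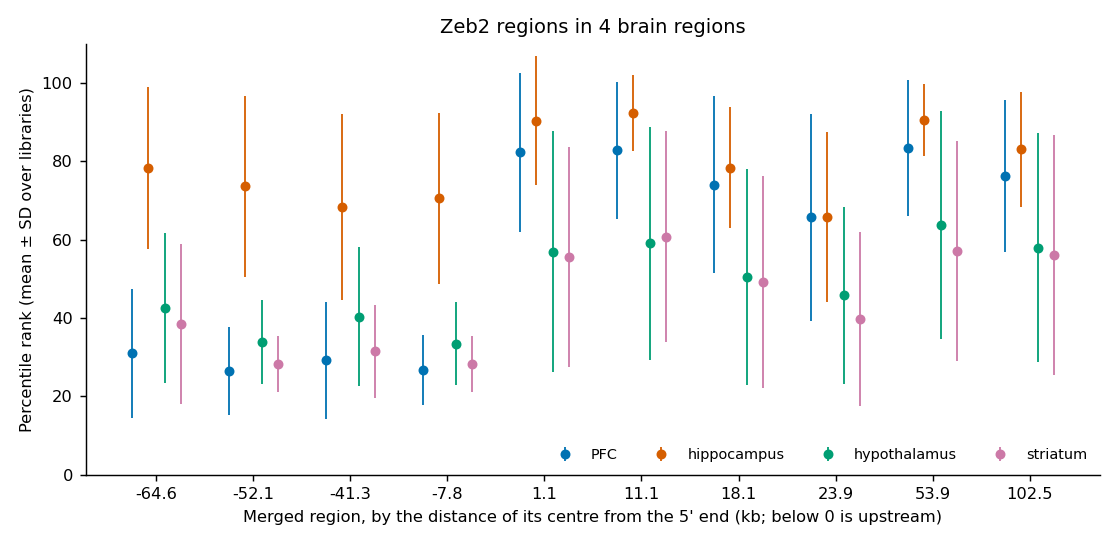
Mean percentile rank ± SD over libraries (vertical axis) is shown for the 10 merged Zeb2 regions, ordered by the distance of their centre from the 5′ end in kb, in 4 brain regions. Hippocampus and PFC lie above hypothalamus and striatum inside the gene, and the upstream regions, listed from hippocampus alone, are high in hippocampus.

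Libraries of the same animal were compared at the merged promoter region in the 6 pairs of brain regions. Of 25 animals with both hypothalamus and striatum, 7 were MOR-LPS, and 6 of these ranked at 82.7 or above in both tissues (14-4, 15-1, 15-3, 16-0, 16-4 and 7-1), while 6-0 ranked at 96.9 in hypothalamus and 30.4 in striatum. SAL-SAL 9-4 (99.6 and 94.6) and 3-2 (95.6 and 97.0) and SAL-LPS 10-4 (94.5 and 93.0) were high in both as well. Others were high in 1 tissue alone: SAL-SAL 4-1 ranked at 93.5 in hypothalamus and 24.1 in striatum, SAL-SAL 9-0 at 26.2 and 88.7, SAL-SAL 9-2 at 26.9 and 75.5, and SAL-LPS 10-0 at 32.8 and 74.8. Within the 7 MOR-LPS animals rho was −0.179 and r −0.255, as a description. Over the 25 animals Pearson's r was 0.593 and Spearman's rho 0.467, with adjusted permutation p of 0.387 and 0.268 within treatment group and over 6 pairs. In lists of equal length this rho was 0.171. The striatum libraries of 14-4, 15-3, 16-0, 7-1 and SAL-SAL 9-4 were among the 6 of high oligodendrocyte share. Over the same animals the oligodendrocyte share itself had a rho of 0.423 between hypothalamus and striatum. Whether the share and the Zeb2 ranks are linked across tissues was not tested. Hippocampus and striatum had a rho of 0.541 over 25 animals (adjusted permutation p = 0.0349) but an r of 0.135 (0.579), and the rho was 0.228 in lists of equal length. The other 4 pairs had an adjusted permutation p of 0.268 or above by either measure.

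Genes that work with ZEB2 were examined as a list of 15, the paralog Zeb1 and members of the CtBP and NuRD corepressor complexes. In the hypothalamus 9 of them had a region, 16 regions in all. In MOR-LPS against SAL-LPS 1 of 16 was called higher, where 4.31% of all hypothalamus regions were called. This was the region of Chd4, the NuRD ATPase, at 34.8 ± 9.64 (SE, adjusted p by limma 0.0219). It also ranked higher in MOR-LPS than in MOR-SAL in hypothalamus (40.1 ± 9.63, 0.0066) and in striatum (48.9 ± 9.55, 0.00473). The last of these was 1 of 39 striatum regions of the list, where 0.253% of all striatum regions were called. That contrast called 152 of all 60013 striatum regions, and 3 in lists of equal length. It called 1 with the oligodendrocyte share as a term and 0 without the 6 libraries of high oligodendrocyte share. In striatum MOR-LPS against SAL-LPS 0 of 39 were called by limma, beside 2.32% of all. At an unadjusted p 8 of 39 passed, beside 20.4% of all striatum regions. The median of the 16 hypothalamus regions for MOR-LPS minus SAL-LPS was 5.42. Over all 13788 hypothalamus regions limma called 594 in MOR-LPS against SAL-LPS, and 50 with the neuron share as a term. In MOR-LPS against MOR-SAL it called 529, and 39 with that term. Within the libraries of the most frequent peak name pattern, which are fewer, the calls were 61 and 0 in the same order. The genes of the lists were not followed under these alternatives. No promoter region of Zeb1 was called in any contrast, and its hypothalamus promoter differed by 13.8 ± 11.2 (SE, adjusted p by limma 0.488) between MOR-LPS and SAL-LPS. In PFC and hippocampus 0 of 13 and 0 of 18 regions of the list were called by limma in MOR-LPS against SAL-LPS. At an unadjusted p 1 passed in each, beside 11.3% of all PFC regions and 7.56% of all hippocampus regions.

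Of 32 genes of TGF-beta and BMP signalling, the pathways whose SMAD proteins ZEB2 binds, 13 had a region in the hypothalamus, 27 regions in all. None of the 27 was called by limma in MOR-LPS against SAL-LPS, beside 4.31% of all hypothalamus regions, and the median difference was 0.208. In MOR-LPS against MOR-SAL 1 of 27 was called lower, where 3.84% of all hypothalamus regions were called. This was the region of Id4, a BMP-responsive inhibitor of bHLH factors (−33.4 ± 10.5, SE, adjusted p by limma 0.0459). In the striatum 1 of 133 was called higher in MOR-LPS than in SAL-LPS, a share under the 2.32% of all regions called. It was that of Smad1, a BMP signal transducer (23.3 ± 6.85, SE, adjusted p by limma 0.046). In lists of equal length this contrast called 0.00333% of all striatum regions. Of 6 genes that neighbour Zeb2, no region was called by limma in any contrast of any brain region, and 5 of their 15 striatum regions had an unadjusted p under 0.05 in MOR-LPS against SAL-LPS, beside 20.4% of all striatum regions. Among 60 hypothalamus regions of neuron markers, 4 were called lower in MOR-LPS than in MOR-SAL, near Elavl4, Snap25, Nefm and Syt1 (−42.7 to −33.9). Of 17 regions of oligodendrocyte markers 2 were called higher, near Mbp (38.6 ± 10.4, SE) and Mog (30.8 ± 9.64), with adjusted p by limma of 0.0175 and 0.0444. Of 3 regions of astrocyte markers 1 was called higher, at the Slc1a3 promoter (29.6 ± 8.28, SE, adjusted p by limma 0.0235). Over all hypothalamus regions 3.84% were called in either direction. In MOR-LPS against SAL-LPS 1 of the 60, 0 of the 17 and 1 of the 3 were called by limma, beside 4.31% of all hypothalamus regions. The astrocyte region was again that of Slc1a3 (29.6 ± 8.29, SE, adjusted p by limma 0.0238). The median difference was −11.2 over the 60 and 12.2 over the 17. As given above, both contrasts called fewer of all hypothalamus regions with the neuron share as a term.

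Genes whose region followed Zeb2 most closely over libraries were found by Spearman's correlation of ranks with the Zeb2 promoter region, as a description. In the hypothalamus these were near Fth1, a ferritin subunit (rho 0.966 over 41 libraries), Lmod3 (0.941), Prtg (0.93), Mthfd1 (0.93) and Slc44a1, a choline transporter (0.928), and the other 10 Zeb2 regions had a rho of 0.67 to 0.946. In PFC they were Tcf4, a bHLH factor (0.875 over 42 libraries), Pea15a (0.847), Adtrp (0.833), Nuak1 (0.832) and Nfix (0.821), and the other 9 Zeb2 regions had 0.589 to 0.863. In the striatum they were Sftpc (0.826 over 45 libraries), Sulf2 (0.805), Mgrn1 (0.799), Rassf2 (0.796) and Slc16a1, a monocarboxylate transporter (0.777), beside 0.548 to 0.704 for the other 7 Zeb2 regions. In the hippocampus the values were lower: Galt led at 0.638 over 44 libraries, followed by Smarcad1 (0.6), Nr4a3 (0.6), Cln8 (0.569) and Fbrsl1 (0.569), and the other 13 Zeb2 regions had −0.07 to 0.504. Correlations with the Zeb2 promoter region were lower there in general. The 95th percentile of rho over all regions was 0.274 in hippocampus, against 0.571 in PFC, 0.607 in hypothalamus and 0.541 in striatum. For the intron 2 region of largest difference in the hypothalamus, the leading genes were G430095P16Rik (0.876), Tcf4 (0.869), Gabrr2 (0.869), Zfp366 (0.868) and Hs1bp3 (0.863). Libraries without a peak share a tied rank, and shared absence of peaks is part of these values.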

How the data were processed

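Peak lists of H3K27ac MOWChIP-seq libraries were used, with 1 library per animal and brain region. Before deposit, the authors used Trim Galore 0.6.7 for trimming, Bowtie2 2.4.5 for alignment to mm10, SAMtools 1.15.1, and MACS2 2.2.7.1 for peaks of single libraries, with a q-value limit of 0.05. A deposited peak list gives the −log10 p and −log10 q of a peak and its fold enrichment, a ratio over the local background of the same library. DiffBind 3.10.1 made the authors' consensus list of each brain region, which holds positions alone. No read counts are in these lists, so the DESeq2 fit of the study was not repeated.

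Of 174 lists 172 were used: in PFC, SAL-SAL female 9-2 held 4371 peaks and was left out, and in the hippocampus the lists of SAL-LPS males 1-2 and 5-2 were identical, so the pair entered as 1 sample. The PFC list labelled MOR-LPS female 12-2 holds peaks named for another animal, and its label was used. Regions were ranked within a library by the highest −log10 p of peaks overlapping them by at least 1 base. Groups were compared by limma 3.58.1 in R 4.3.3 with a mean-variance trend and sex as a term, in 1 fit of all regions per brain region, with Benjamini-Hochberg adjustment over all of them. The fit was tested on simulated data made from all hypothalamus libraries (13788 regions), with the labels of all groups shuffled within sex. For MOR-LPS against SAL-LPS it called 11% of regions shifted by 25.6 points on average and 64% of those shifted by 41.5, and 1 of 13588 others. A marker share is the percentage of marker genes that have a peak within 1 kb of a TSS among the 10000 peaks of highest −log10 p. They and the number of peaks, the measure of depth here, were compared by two-sided permutation tests within sex (100000 permutations), which cover 64 comparisons.

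Named items followed a rule: all Zeb2 regions, by library for the promoter, internal start and largest hypothalamus difference, Zeb1 and at most 4 called members per list and contrast, and the 5 genes of most similar rank, over 1 Mb from Zeb2. The intron and upstream regions outside this rule were named after their values were seen. The members and lists were chosen with earlier results of these data known. P-values measure the spread between libraries of separate animals, some of which share a leading number in their labels. Each animal is taken as independent unless that number is used as a block. Sequences come from mm10 and from RefSeq promoters of GRCm38.p6. Alternatives are given with their effect in the closing section.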

Additional observations from a re-analysis of the deposited data

Results flagged for a closer look

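Of 26 groups of 4 to 10 libraries examined for a library far from the others, 4 held one, and chance flags about 1 in 20 groups. The SAL-SAL female 9-4 stood apart in a pair of brain regions: peaks covered 88.6% of Zeb2 in its PFC library, the highest of 8 SAL-SAL libraries by a wide gap, and 78.2% in its striatum library, where the next of 10 had 23.5%. The share of oligodendrocyte markers with a strong promoter peak was 81.2% in the first and 75.0% in the second. In the striatum MOR-SAL group of 7, female 15-4 ranked at 84.7 at the internal start site region (chr2:45008145-45035469), with the next at 36.4. In the same group, female 16-1 ranked at 75.6 at the promoter region (chr2:45110317-45116945), with the next at 35.2. At each of these 2 regions 1 of the 7 libraries had a peak. The causes were not tested.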

How the results depend on the processing

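Of 131 alternative values for the 13 tested contrasts, 130 kept the count of called Zeb2 regions at 0, and striatum MOR-LPS against MOR-SAL gave 2 of 8 with the astrocyte marker share as a term, an alternative chosen after seeing the data, as were the cell type terms outside hypothalamus and the exclusion of libraries with high oligodendrocyte shares. The block on the leading number of the labels changed no count of called regions at the locus, and its hypothalamus MOR-LPS minus SAL-LPS median was 36.0 against 35.7 without it. It used 1 correlation over all regions of a brain region: −0.0159 in hypothalamus, −0.00143 in striatum, 0.00141 in hippocampus and 0.0336 in PFC. With values so near 0 the fit is close to one without a block. It cannot show whether the leading number matters at Zeb2. The number does not mark a stated pairing. Without the animal block no count between brain regions changed past 1.5 times. Of the 10 merged regions, the 4 listed from hippocampus alone included, PFC against hypothalamus gave 3 called regions in lists of equal length in place of 9. PFC against hippocampus gave 8 with the oligodendrocyte share as a term in place of 5, and its merged promoter difference of −10.2 passed the threshold at −10.8 with log10 of the number of peaks as a term (adjusted p by limma 0.0404), −11.2 with the oligodendrocyte term (0.0293) and −16.3 in lists of equal length (0.00333). Hypothalamus against striatum gave 1 with the number of peaks as a term, 4 with the oligodendrocyte term and 4 without the libraries of high oligodendrocyte share, in place of 0. The cause was not tested. Leaving out each of 41 hypothalamus libraries in turn, MOR-LPS minus SAL-LPS ran from 45.6 to 56.8 at the intron 2 region, 29.2 to 40.8 at the TSS cluster and 42.6 to 53.5 at the internal start site. All 11 hypothalamus regions stayed above 0 in MOR-LPS minus SAL-LPS in the alternatives run, including within the libraries of 1 peak name pattern (median 30.5), and MOR-SAL minus SAL-SAL within that pattern had a median of −5.37, from −13.0 to 10.6, against −11.2. In MOR-LPS minus SAL-LPS 10 of 10 were above 0 where a peak in at least 20% of libraries was required. The peak lists carry no read counts, so signal below the peak threshold could not be seen.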
